A study of Mus musculus with 4 samples.

Results

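Chromatin immunoprecipitation and sequencing (ChIP-seq) of CTCF in differentiating osteoblasts left a set of sites that were listed at day 0 and at day 28 but had no listed peak at day 9. The members were found by joining the peak lists of the 3 days wherever peaks shared at least 1 bp, on chromosomes 1 to 19, and keeping the regions with a day 0 and a day 28 peak and no day 9 peak. They numbered 5118 of the 68920 regions on these chromosomes (70742 with chromosomes X and Y). The presence and absence of listed peaks chose the members, so their scores are given below as a description and no test was made.

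All cells were of the mouse preosteoblast line MC3T3-E1, subclone 4, which comes from calvaria and is labelled as C57BL/6, at passages 28 to 31. Being a subclone, the line stands for 1 clonal lineage and not for a population of primary osteoblasts. Day 0 cells were proliferating preosteoblasts, day 9 cells were labelled as matrix-depositing and day 28 cells as mineralizing. Differentiation was induced with ascorbic acid (280 µM) together with beta-glycerophosphate (10 mM), and the same CTCF antibody lot was used on each day. The series' design text describes 2 biological repeats of each CTCF library and 2 input libraries from day 9 cells, but each day is represented by 1 peak list and the input was not analysed here. Replicate error is therefore unknown, and the intervals given below (95%, Wilson for shares, order statistics for medians) cover counting error over regions only.

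CTCF is a zinc-finger protein that binds a long DNA motif, blocks enhancers from acting across it and stops cohesin at the anchors of chromatin loops. Many of its sites are occupied in most cell types, while weaker sites tend to vary more between cell types and with DNA methylation. In bone-forming cells, as elsewhere, its loops and boundaries set which enhancers can reach which promoters.

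On chromosomes 1 to 19 there were 65943 peaks for day 0, 41808 for day 9, the shortest list, and 44650 for day 28. Each deposited peak score was read as −10 log10 of the peak caller's p-value, which no file header states. It saturates at 3100, rises with sequencing depth and was compared only within a list. The lowest score was 100 in the day 9 and day 28 lists and 100.01 at day 0. Read depth behind the lists is unknown. A region called missing here has no listed day 9 peak. Whether CTCF was absent from it was not measured.

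The sites without a day 9 peak had scores in the lower part of both the day 0 and the day 28 list. Their day 28 scores ran from 100.05 to 1556.62, with a median of 145.1 and quartiles of 118.1 and 196.7. Their day 0 scores ran from 100.05 to the saturated value of 3100, with a median of 317.3 and quartiles of 197.02 and 515.8. Within its own list the median member stood at percentile 13.6 at day 28 and at percentile 36.9 at day 0. These lists differ in length. Cutting them to equal length left 2027 members, with scores of at least 313.79 at day 0 and 118.4 at day 28. In percentiles of the cut lists, their medians were 12.6 at day 28 and 19.01 at day 0. The cut changes both the members and the percentiles, so the part of list length in the difference between the days was not tested. The 36137 regions listed on all 3 days stood far higher, with median scores of 1815 at day 0 and 1087 at day 28. At day 0 the members lay between those regions and the 21380 regions found at day 0 alone, whose median score was 175.2. At day 28 their median was close to that of the 1887 regions found at day 28 alone, 140.5.

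**Figure D1:**
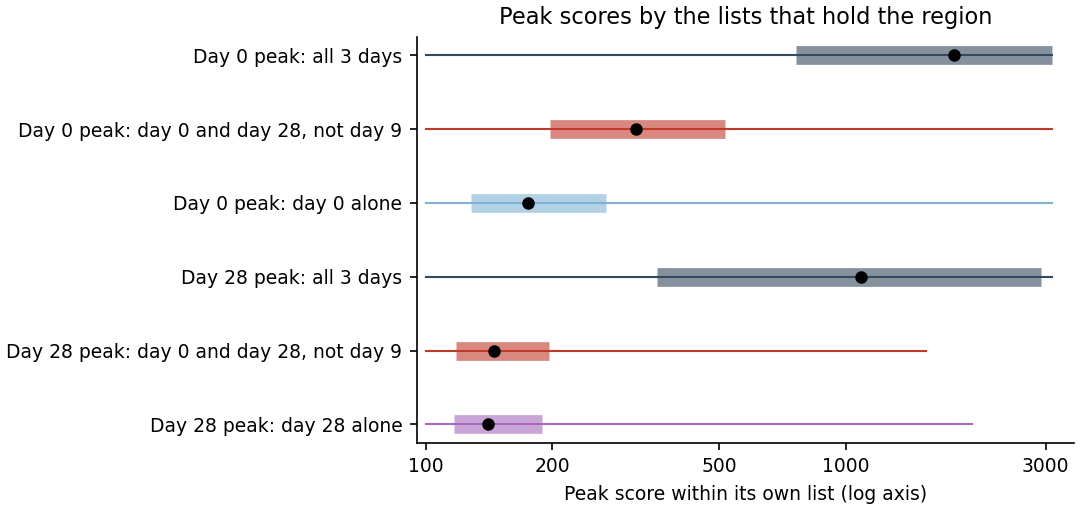
Peak scores within their own list on a log axis, for the day 0 peaks (upper 3 rows) and the day 28 peaks (lower 3 rows) of regions grouped by the lists that hold them; thin lines run from the lowest to the highest score, thick bars span the quartiles and dots mark medians. The regions without a day 9 peak have a median of 317.3 at day 0 and 145.1 at day 28, below the regions of all 3 days in both lists.

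A low score in at least 1 of the lists was the rule. At day 28, 75.8% of members scored under 200, against 12.01% of the regions listed on all days. At day 0 the share under 200 was 25.8%, against 3.25% of the regions listed on all days and 58.7% of those of day 0 alone. In 4164 members (81.4%) at least 1 of the scores was under 200, and in 1034 both were. Counts that combine both scores were made for members only. Scores of at least 500 in both lists were reached by 34 members, and of at least 1000 in both by 2. In these lists of unequal length, members had the higher percentile at day 0 in 4314 cases (84.3%), and regions of all 3 days in 86.7%. Across members the day 0 and day 28 scores were nearly unrelated (Spearman's rho 0.129 over 5118 regions), while rho was 0.826 over the regions of all 3 days. These are correlations over regions of the same lists, and the narrow score range of the members enters them.

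Of the 41255 regions with a day 0 and a day 28 peak, 12.4% had no day 9 peak. That share followed the strength of the site. It was 54.8% (53.4 to 56.1) where the day 28 score was between 100 and 150, 35.1% (33.5 to 36.8) between 150 and 200, and 7.40% (6.68 to 8.20) between 300 and 500. Among 10303 regions with a day 28 score from 1000 up to saturation, 4 (0.0388%) lacked a day 9 peak. None of the 8450 regions saturated at day 28 did, which allows a share of up to 0.0355%, taking 3 regions as the limit that a count of 0 allows. By day 0 score the share fell from 55.6% (52.8 to 58.3) at 100 to 150 to 14.7% (13.9 to 15.5) at 500 to 1000, and 3 of 12026 saturated day 0 regions were members.

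Both scores bore on the share. With both percentiles at 10 or under, 184 of 244 regions (75.4%, 69.6 to 80.4) had no day 9 peak. Where the day 28 percentile stayed at 10 or under and the day 0 percentile was between 50 and 60, the share was 41.4% (37.5 to 45.4) of 587 regions. With both percentiles between 50 and 60, it was 0.159% of 627 regions. A weak day 28 peak thus went with a missing day 9 peak less often where the day 0 peak ranked higher.

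**Figure D2:**
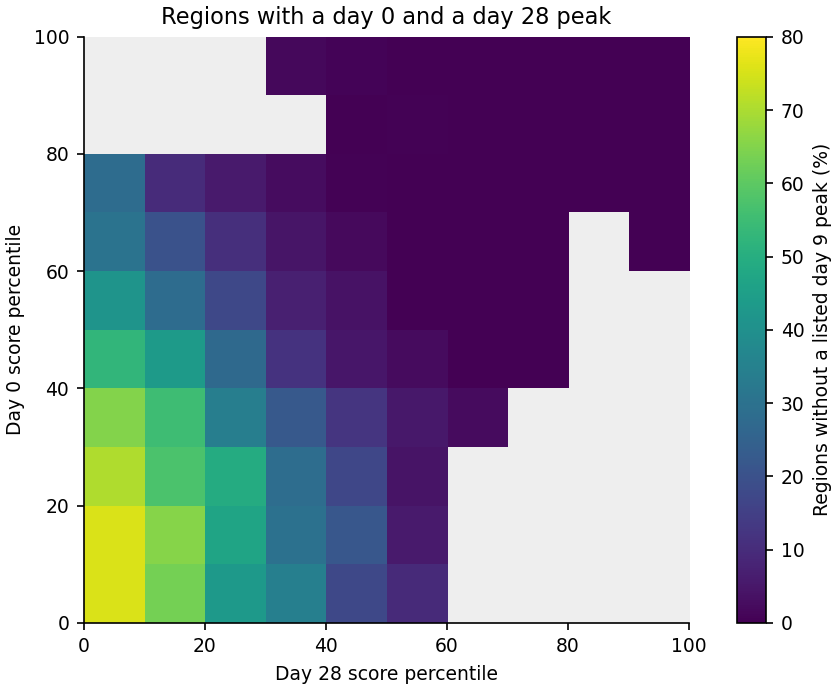
Share of regions without a listed day 9 peak (colour, in %) among regions with a day 0 and a day 28 peak, by the percentile of the day 28 score (horizontal) and the day 0 score (vertical) within each list; grey squares hold fewer than 20 regions. The share is 75.4% in the lower left square and 0.159% where both percentiles are between 50 and 60.

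The other lists gave smaller counts of the same kind. A day 28 peak was missing from 6.46% of the regions with a day 0 and a day 9 peak (2495 regions), and a day 0 peak from 2.8% of those with a day 9 and a day 28 peak (1040 regions). The order of these shares follows the list lengths, from the shortest list (day 9) to the longest (day 0). Limited to 41808 peaks per list, 2027 regions were members, 5.80% (5.56 to 6.05) of those with a day 0 and a day 28 peak. The sites missing at day 28 resembled the members in their day 0 scores, with a median of 326.2 (quartiles 206.1 and 520.7) against 317.3. Their day 9 scores had a median of 125.8.

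Some regions lay just inside the rule and others just outside it. Members with a day 28 score under 110 numbered 757 of 5118, with a median day 0 score of 273.1. Such day 28 scores were held by 442 of 36137 regions of all 3 days and by 314 of 1887 of day 28 alone. Members with a day 0 score under 110 numbered 151, with a median day 28 score of 135.2. Such day 0 scores were held by 106 regions of all 3 days and by 2195 of 21380 of day 0 alone. On the other side, 760 of the 36137 regions of all 3 days held a day 9 peak scoring under 110. Their median scores were 105.1 (day 9), 400.6 (day 0) and 171.6 (day 28). By position, 23 members (0.449%) had a day 9 peak within 100 bp of the region without touching it. The share was 0.327% for regions of day 0 alone and 0.318% for those of day 28 alone. For regions of all 3 days, 0.415% had another day 9 peak that close, so the members were near this background. The closest lay on chromosome 17 at 24682092 to 24682737 (mm9, as all positions here), 11 bp from a day 9 peak of score 500.4, with a day 0 score of 133.1 and a day 28 score of 151.6. The next were on chromosome 11 at 59989086 to 59989886 (12 bp) and on chromosome 5 at 23957205 to 23958554 (43 bp).

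The highest-ranking members were chosen by the lower of their day 0 and day 28 percentiles. The first lay on chromosome 2 at 96074661 to 96075218, with a day 0 score of 1068 and a day 28 score of 1557. The second, on chromosome 19 at 3685540 to 3687633, was a wide region of 2094 bp with a day 0 score of 1752 and a day 28 score of 1105. These are the 2 members scoring at least 1000 in both lists. The third, on chromosome 4 at 4645026 to 4645585, scored 1084 at day 0 and 788.3 at day 28. On chromosome 5 at 105415631 to 105416133 the scores were nearly alike, 725.3 at day 0 and 741.1 at day 28. The fifth lay on chromosome 19 at 60236748 to 60237274 and scored 1657 at day 0 and 692.2 at day 28. Members 1 to 6 in this order were the 6 that stood above the median of both lists.

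Some of these sites had very strong day 0 peaks. The sixth, on chromosome 10 at 105012146 to 105012819, scored 3086 at day 0 and 676.2 at day 28. The seventh, on chromosome 4 at 33037134 to 33038274, was saturated at day 0 and scored 660.8 at day 28. The remaining 3 of the 10 were less uneven. On chromosome 6 the region from 94313826 to 94314553 scored 799.8 at day 0 and 659.7 at day 28. The chromosome 3 region from 150664924 to 150665387 had 815.1 and 652.0, and the chromosome 8 region from 55622471 to 55623099 had 1115 and 643.5. A strong day 9 peak could lie nearby: that of the chromosome 4 site at 33037134 was saturated and 67.03 kb away, while the nearest day 9 peak to the chromosome 2 site scored 193.2 and was 102.3 kb away.

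The peak names gave a further view of the day 9 library. The caller numbers its peaks along the genome, and in each list numbers and positions rose together without exception. Over all chromosomes the day 9 numbers ran to 63558 and 20784 of them were left out of the deposited list. A gap between the numbers of neighbouring day 9 peaks is read here as a numbered day 9 peak, somewhere between them, that was not listed. Of the 5111 members with a day 9 peak on either side, 4426 (86.6%) lay in an interval with at least 1 number left out. For regions found at day 0 alone this share was 70.2%, and for those of day 28 alone 77.3%. Over all 41789 intervals between day 9 peaks it was 32.2%. Long intervals hold more of everything, so intervals that held a single region of the other lists were compared within bands of length.

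In intervals holding 1 member and nothing else, a left-out day 9 peak was the usual finding. It was present in 1357 of 1761 such intervals (77.1%, 75.04 to 79.0), and exactly 1 number was left out in 1030. The share was 47.2% (45.9 to 48.4) of 6570 intervals with a single day 0-only region, 62.1% (58.3 to 65.7) of 651 with a single day 28-only region, and 12.7% (12.3 to 13.1) of 26159 with no region of the other lists. In intervals of 10 to 20 kb these shares were 83.2% (78.9 to 86.8), 45.1% (42.4 to 47.8), 65.4% (56.02 to 73.8) and 13.3% (12.4 to 14.3). Under 5 kb, where the place of the left-out peak is known best, they were 64.2% (54.7 to 72.6), 36.0% (31.3 to 40.9), 48.3% (31.4 to 65.6) and 5.56% (5.11 to 6.06). No source used here gives the score of a left-out peak, its exact place or the filter that removed it.

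**Figure D3:**
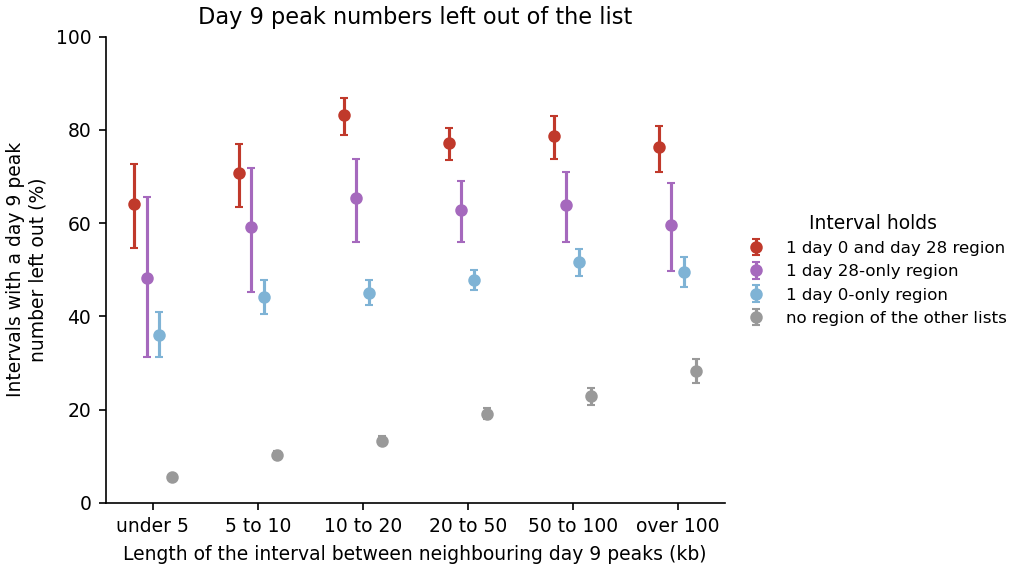
Share of intervals between neighbouring day 9 peaks in which at least 1 day 9 peak number was left out of the list (%, with 95% Wilson intervals), by interval length in kb and by what the interval holds of the other lists. Intervals with 1 region of day 0 and day 28 (red) lie above those with a day 28-only region (purple), a day 0-only region (blue) and those with no region (grey) in every band, for example 83.2%, 65.4%, 45.1% and 13.3% at 10 to 20 kb.

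Stronger sites more often lay in an interval with a day 9 number left out, in score bands that were not matched for interval length. Among single members the share rose from 65.3% (59.3 to 70.8) with a day 0 score of 100 to 150 to 83.7% (79.8 to 87.0) with a day 0 score of 500 and over. By day 28 score it was 72.9% (70.03 to 75.6) at 100 to 150 and 87.6% (79.96 to 92.6) at 300 to 500. It was 86.5% (72.02 to 94.1) of the 37 intervals with a day 28 score of 500 and over, where the intervals overlap widely. Day 0-only regions showed the same order at lower shares, from 37.4% (35.5 to 39.2) to 69.8% (64.6 to 74.6). Their median interval lengthened from 28.8 to 47.4 kb between these bands. For members it went from 28.4 kb at day 28 scores of 100 to 150 to 45.7 kb at 300 to 500. By day 0 score it was 37.5 kb at 100 to 150 and 33.5 kb at 500 and over. The part of interval length in these orders was not tested. The finding was not particular to day 9. Of 1001 intervals between day 28 peaks that held 1 region missing only at day 28, 81.4% (78.9 to 83.7) had a day 28 number left out, against 8.72% (8.402 to 9.04) of day 28 intervals with no region of the other lists.

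Members without such a gap lay between consecutively numbered day 9 peaks. They numbered 685 (13.4%, 12.5 to 14.4). The 5 highest-ranking of them were the chromosome 4 site at 4645026 and the chromosome 3 site at 150664924, described above, and 3 others. One lay on chromosome 6 at 129038069 to 129038814, with a day 0 score of 732.4 and a day 28 score of 616.6. On chromosome 10 at 10075331 to 10075939 the scores were 1172 and 528.7. The last lay on chromosome 6 at 127036620 to 127037248, with 789.8 and 523.6, in a day 9 interval of only 14.2 kb. Of the 10 highest-ranking members, 2 had no number left out. The chromosome 2 site had 2 left out in an interval of 662.7 kb, and the wide chromosome 19 site had 3 in 25.9 kb.

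The members' peaks were centred much as those of the regions of all days and were slightly narrower at like day 28 scores. Of the 5118, 5045 consisted of 1 peak in each list, 55 held 2 day 0 peaks and 21 held 2 day 28 peaks. The joined regions were 230 to 3568 bp wide, with a median of 585 bp. In the 5045 simple members the centres of the day 0 and day 28 peaks lay a median of 39.5 bp apart (quartiles 18 and 73.5), against 41.5 bp (19 and 78) in 35136 regions of all days with 1 peak at day 0 and at day 28. Peaks that shared less than 50% of the shorter one were rare, but less so in members. They made up 7 of the simple members (0.139%) and 4 of the 35136 regions of all days (0.0114%). At day 28 scores of 150 to 200 the day 28 peak was 561.5 bp wide (476.8 to 674) in members and 563 bp (493.2 to 651.8) in regions of all days, whereas the median day 0 score was 354.2 and 551.7. The day 28 peaks of members had the lower median width in each of the 4 bands of day 28 score from 100 to 500, by the most at 300 to 500 (608 against 626 bp). Day 0 peaks were narrower too, with 494 against 524 bp at 150 to 200. The spread within each class was wider than these differences.

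The distance to day 9 peaks was much the same for members and for other regions without one. The nearest day 9 peak was a median of 11.01 kb away (quartiles 3.45 and 30.2 kb), and 2430 members (47.5%) had one within 10 kb. The median was 11.9 kb for regions of day 0 alone and 12.5 kb for those of day 28 alone. From regions of all 3 days to the nearest other day 9 peak it was 8.56 kb. A day 9 peak within 1 kb was found for 479 members (9.36%, 8.59 to 10.2), against 8.34% (7.98 to 8.72) of day 0-only regions. At the other end, 398 members (7.78%) were more than 100 kb from any day 9 peak, against 9.90% of day 0-only regions, 7.58% of day 28-only regions and 3.93% of regions of all 3 days. The farthest lay on chromosome 3 at 43586921 to 43587322, 1.54 Mb away, with scores of 350.0 at day 0 and 119.7 at day 28. The next 2 were neighbours on chromosome 12, at 95428657 to 95429213 (1.4998 Mb, scores 144.6 and 208.1) and at 94788170 to 94788678 (1.246 Mb, scores 627.7 and 298.5).

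With the full lists, members lay among day 9-positive sites nearly as regions of all days did. The nearest other region with a day 0 and a day 28 peak was itself a member for 702 of 5118 (13.7%, 12.8 to 14.7), against 11.8% (11.4 to 12.1) for the regions of all 3 days. At distances up to 5 kb these shares were 12.7% (11.2 to 14.3) and 10.9% (10.4 to 11.4). Members lay a median of 10.5 kb from the nearest such region and regions of all days 8.30 kb. Along the chromosomes 3812 members (74.5%) had day 9-positive regions as both neighbours, and 1306 (25.5%) lay in uninterrupted runs of 2 or more, of which 490 were pairs and 81 were triplets. Of all regions with a day 0 and a day 28 peak, 77.0% (76.6 to 77.4) had no member as a neighbour, so the 74.5% (73.3 to 75.7) of members is near this background. A cut to scores of at least 200 was applied to all 3 lists. Regions whose listed day 9 peak scored under 200 could thus become members. With that cut, the nearest other region was a member for 16.5% (15.4 to 17.7) of members. Members then made up 12.5% of the day 0 and day 28 regions. At equal list length these shares were 6.71% (5.70 to 7.88) and 5.80%. The share for regions of all 3 days was not recomputed.

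The longest run held 7 members over 474.9 kb of chromosome 18, from 23094366 to 23569263. Its day 0 scores were 527.2, 3100, 1480, 1553, 1467, 317.2 and 916.1 in order of position, and its day 28 scores 243.8, 195.1, 119.0, 210.3, 190.8, 117.8 and 337.2. The day 0 scores of 6 of these 7 were above 500, while the highest of the 7 day 28 scores was 337.2. It lay within a single day 9 interval of 891.5 kb in which 3 numbers were left out. A run of 6 on chromosome 14, from 7258349 to 8006229, was of the same kind, with day 0 scores between 1066 and 1969 and day 28 scores between 102.8 and 152.8. It lay in a day 9 interval of 1101 kb with 5 numbers left out.

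The other long runs had lower median day 0 scores than these 2 (1467 on chromosome 18 and 1190 for the run of 6 on chromosome 14). That of the chromosome 10 run, 834.9, was still above the day 0 list median of 556.0. A run of 6 on chromosome 4, from 105647484 to 105879098, had median scores of 120.0 at day 0 and 140.1 at day 28. Runs of 5 were tied, so all 4 are given. They lay on chromosome 10 at 113878981 to 114336044 (median day 0 score 834.9), on chromosome 14 at 17409612 to 18180255 (173.7) and at 28902611 to 29318742 (428.9), and on chromosome 2 at 173104620 to 173204048 (305.5). Median day 28 scores of these runs were 128.1, 173, 150.1 and 183.1. Each of the 7 runs lay within 1 day 9 interval, and in each interval between 2 and 7 day 9 numbers were left out. These intervals were 179.8 to 1217 kb long, and each run also spanned between 2 and 6 day 0-only regions. No background was made for left-out numbers in intervals of such length and content.

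Chromosomes differed in the share of sites missing at day 9. Of the regions with a day 0 and a day 28 peak, the share was highest on chromosome 19 (17.2%, 15.3 to 19.2), chromosome 3 (15.02%, 13.5 to 16.7) and chromosome 12 (15.0%, 13.3 to 16.8). The lowest shares were those of chromosome 17 (7.37%, 6.29 to 8.62), chromosome 1 (9.66%, 8.59 to 10.8) and chromosome 6 (10.6%, 9.40 to 11.8). Sites missing at day 28 ran the other way at the extremes: they made up 10.6% (9.36 to 12.1) of the day 0 and day 9 regions on chromosome 17 and 4.64% (3.61 to 5.95) on chromosome 19. At equal list length, a setting added after the data had been seen, chromosome 19 was still highest (9.87%), and chromosomes 1 (3.38%) and 17 (3.62%) were lowest. With scores of at least 200, chromosomes 3 (16.8%) and 12 (16.3%) stood above chromosome 19 (15.7%), and chromosome 17 was lowest (7.40%). That cut also counts sites as missing whose listed day 9 peak scored under 200.

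The shares followed the day 9 ranks of the sites that were listed. For 22972 regions with 1 unsaturated peak in each list, the day 9 rank shift is the day 9 percentile minus the mean of the day 0 and day 28 percentiles, each taken over these regions. Over all of them 49.4% were lower at day 9. Regions on chromosome 19 shifted by a median of -8.36 percentile points and those on chromosome 17 by 5.94. Chromosome 14 had the highest median shift, 6.63, with a share of members near the middle (11.9%). Its share stood lower among the chromosomes under the other settings, at rank 17 of 19 with equal list length (3.96%) and at rank 18 with scores of at least 200 (9.80%). Over the 19 chromosomes, the share of members and the median shift had a Spearman's rho of -0.847 and a Pearson's r of -0.826. Without chromosomes 19 and 14, the farthest from the median shift, these were -0.860 and -0.889. Both measures come from the same day 9 list, so they are not independent. The input libraries were not analysed, and the part of depth or copy number in these shifts was not tested.

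**Figure D4:**
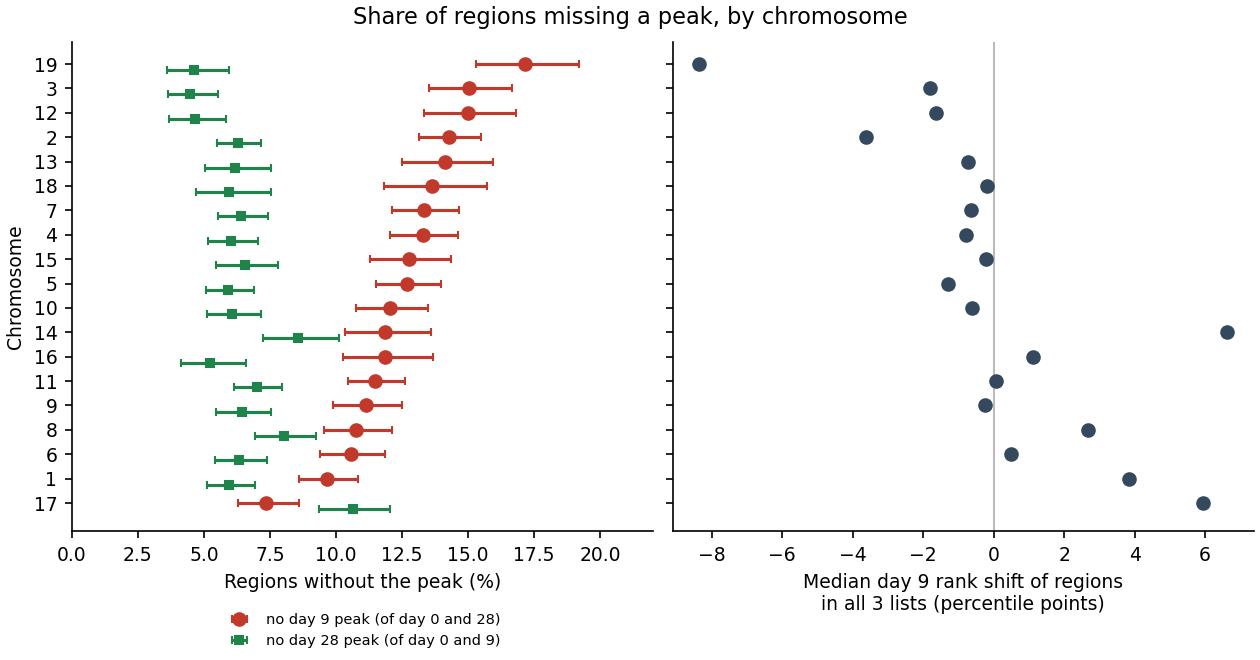
Left, share of regions without a day 9 peak among those with a day 0 and a day 28 peak (red circles) and without a day 28 peak among those with a day 0 and a day 9 peak (green squares), in %, with 95% Wilson intervals, for chromosomes 1 to 19 in order of the first share; right, the median day 9 rank shift, in percentile points, of the ranked regions in all 3 lists. The red share falls from 17.2% on chromosome 19 to 7.37% on chromosome 17, while the shift goes from -8.36 to 5.94.

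Windows of 5 Mb gave a similar picture on a finer scale. Each of the 448 windows with at least 20 regions of day 0 and day 28 held at least 1 member, with a median share of 12.6% (quartiles 9.33 and 15.8). The highest share was on chromosome 13 at 85000001 to 90000000, where 8 of 20 regions (40%, 21.9 to 61.3) were members. It was followed by chromosome 3 at 40000001 to 45000000 (14 of 41, 34.1%) and chromosome 14 at 15000001 to 20000000 (18 of 55, 32.7%). The next were chromosome 13 at 25000001 to 30000000 (10 of 31) and chromosome 5 at 15000001 to 20000000 (7 of 25). These windows were poor in peaks, and the intervals on their shares are wide. Listed sites in 4 of these 5 windows ranked lower at day 9, with median shifts between -10.3 and -3.14 points, and those of the chromosome 14 window had a median of 0.546. Over 447 windows with at least 10 ranked regions, rho between the share and the median shift was -0.420.

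The listed sites close to members had small median rank shifts. Ranked regions within 1 kb of a member had a median shift of -0.731 points (interval -2.66 to 0.893, 315 regions), and those at 1 to 5 kb -0.555 (-1.36 to 0.715, 810 regions). The median was 0.329 (-0.557 to 1.61) at 5 to 10 kb and 0.843 (0.426 to 1.18) at 200 to 500 kb. The spread within each band was far larger, with quartiles of -11.1 and 7.07 points within 1 kb. Around sites missing only at day 28 the medians were positive up to 500 kb, for example 2.01 points (1.04 to 2.90) at 10 to 20 kb. Their intervals included 0 within 1 kb (-0.178 to 4.07), at 1 to 5 kb (-0.396 to 2.36) and at 200 to 500 kb (-0.0403 to 0.766). Seen from the members, the nearest ranked region had a median shift of -1.15 points, against -0.982 from the day 0-only regions and 0.196 over all ranked regions. The value for members had an interval of -1.65 to -0.714, and it moved to -2.04 (-2.57 to -1.28) with lists of equal length and to -2.07 (-2.63 to -1.53) with scores of at least 200. The cut at 200 also makes members of regions whose listed day 9 peak scored under 200. The shift near day 0-only regions was not recomputed under these settings, so whether the classes differ was not tested.

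**Figure D5:**
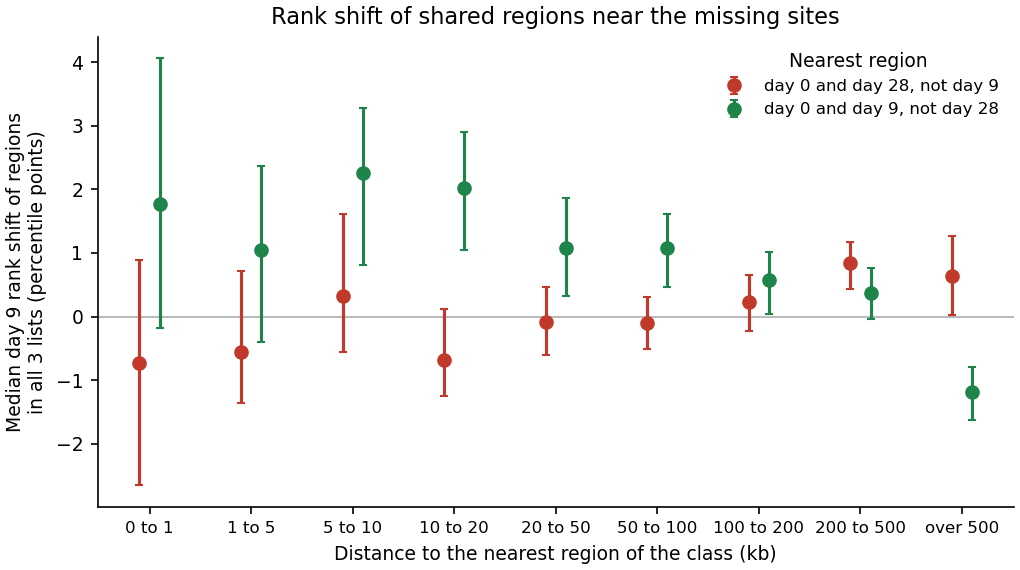
Median day 9 rank shift, in percentile points with 95% order-statistic intervals, of ranked regions in all 3 lists, by distance in kb to the nearest region missing only at day 9 (red) or only at day 28 (green). Within 1 kb of a site missing at day 9 the median is -0.731 with an interval that includes 0.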

How the data were processed

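CTCF ChIP-seq libraries had inserts of 200 ± 50 bp and reads of 36 bases, per the labels. Tools named per the submitters' processing notes are MACS 1.4.1, Bowtie 0.12.8 and CASAVA 1.6, and the build is mm9. The authors deposited 1 peak list per day, with a position, a name and a score for each peak. The deposited score is taken to be −10 log10 of the caller's p-value. How repeats and input were combined, and what removed the unlisted peak numbers, is given by no source used here.

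Starts were counted from 1. Scores above 3100 were set to 3100. Lists were merged, ranked and compared in Python 3.11.15 with pandas 2.3.3 and scipy 1.17.1. The classing of regions and the share of single members with a number left out were checked on simulated lists of known classes. The other steps were not checked in this way. The strongest peak stood for a list with 2 peaks in a region. Left-out numbers were counted between the day 9 peaks flanking a region. No model or test between days was fitted, since each day has 1 list.

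The rule for named regions took the 10 members with the highest lower percentile, the 5 highest with no number left out, the 3 nearest to and the 3 farthest from a day 9 peak, the 5 longest runs, the 3 highest and the 3 lowest chromosomes, and the 5 highest windows of 5 Mb. Members and measures were chosen with earlier results of these data known. The alternatives were a score of at least 200, equal list length, an overlap of 50% of the shorter peak, no day 9 peak within 1 kb, and chromosome X added. The gene table and promoter sequences at hand are of another build, GRCm38, so no gene was assigned, no sequence is printed and no motif was searched.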

Additional observations from a re-analysis of the deposited data

How the results depend on the processing

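No paired analysis was possible because each day has 1 list and no replicate lists, and for the same reason no replicate could be left out. Adding chromosome X and requiring an overlap of 50% left all 8 values within the counting interval of the reported ones, or within 1.5 times for the number of members. Excluding regions with a day 9 peak within 1 kb moved 2 of 8: the share without a day 9 peak to 11.2% and the median distance to a day 9 peak to 12.98 kb. Scores of at least 200 moved 6 of 8: median percentiles to 35.2 (day 0) and 12.7 (day 28), nearest regions that are members to 16.5%, the distance to 15.6 kb, the nearest rank shift to -2.07 points, and members with no number left out to 1.07%. By construction, the cut at 200 also drops listed day 9 peaks under 200 and counts them as left out. Regions holding only such a day 9 peak become members. Of the 5118 members, 4164 had at least 1 score under 200, yet this setting gave 4015 members. Equal list length, which removes day 0 peaks under 313.8 and day 28 peaks under 118.4, moved all 8: members to 2027, their share to 5.80%, percentiles to 19.01 and 12.6, nearest members to 6.71%, the distance to 11.6 kb, the shift to -2.04 points and members with no number left out to 9.14%. For single chromosomes, equal list length and scores of at least 200 were added after seeing the data: chromosome 19 was highest at equal length (9.87%), chromosome 3 with scores of at least 200 (16.8%), where chromosome 17 was lowest (7.40%). The number of members thus depends on list length, and with depth unknown a weak or absent day 9 signal cannot be told apart from a shallower day 9 library.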
